A study of Saccharomyces cerevisiae with 6 samples.

Results

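Glycogen synthesis and breakdown in the budding yeast Saccharomyces cerevisiae was followed through 10 genes, GSY1, GSY2, GLG1, GLG2, GLC3, GPH1, GDB1, PIG1, PIG2 and GIP2. They were taken by gene symbol from the 5449 genes named on a one-colour Affymetrix array, and all 10 were measured, each by 1 probe set that is not of a type shared between transcripts. A strain with arginine 45 of histone H4 replaced by histidine (H4R45H), on 3 arrays, was set beside WY139, the wild type, also on 3 arrays. Both strains were grown to mid-log phase (optical density 0.5 to 0.7) in YPD, a rich glucose medium, and total RNA was labelled. The labels give no further genotype and no density for a single culture. They do not say that replicates were grown separately, so the p-values cover array-to-array spread that may be technical.

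Glycogen is a branched glucose polymer that yeast stores as a carbon reserve. Glycogenin starts a chain on itself, glycogen synthase lengthens it from UDP-glucose, and the branching enzyme adds branch points, while phosphorylase and the debranching enzyme take the polymer apart. In textbook accounts the pathway is held low while glucose is plentiful and is raised as glucose runs short or under stress. Control acts on transcription and on phosphorylation of the enzymes, which the type 1 phosphatase Glc7 reverses when targeting subunits bring it to glycogen. The arrays measured messenger RNA and neither enzyme activity nor glycogen.

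All 10 glycogen genes were higher in H4R45H, by 1.66-fold to 3.61-fold, with a median log2 difference of 1.11 against 0.05 over all genes. The 2 breakdown enzymes had the largest differences, the branching enzyme and the targeting subunit gene GIP2 came next, and the major synthase gene GSY2 had the smallest. The share of all genes called higher was 37.1%, and 29.1% were called lower (limma, adjusted p under 0.05 over all probe sets). At 2-fold or more 5 of the 10 genes were higher, against 8.88% of all genes. For each of the 10 the 3 H4R45H signals lay above the 3 wild-type signals, which held for 39.8% of all genes. In RNA from a whole culture, more cells with a transcript and more of it per cell cannot be told apart.

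**Figure D1:**
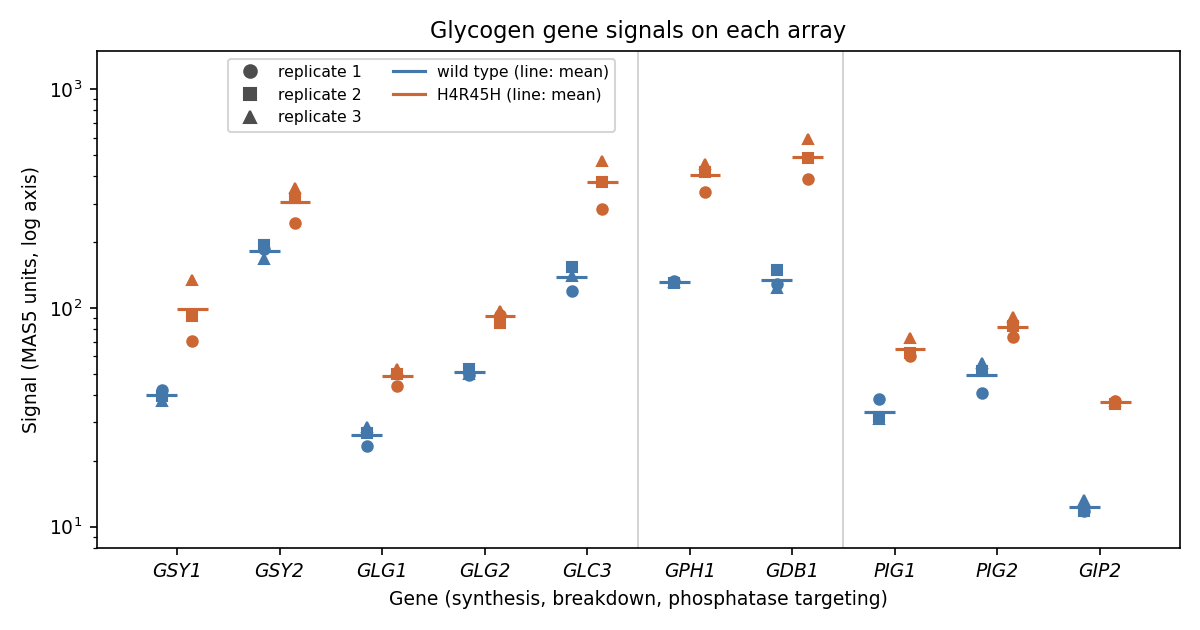
Signal of each glycogen gene on each of the 6 arrays, in MAS5 units on a log axis, with the marker shape giving the replicate and the short line the mean of 3 arrays. The H4R45H points lie above the wild-type points for all 10 genes, and signals are compared within a gene only.

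Arrays had mean signals of 277 to 287. Over all probe sets, which are no replicates of each other, log2 signals correlated at 0.9902 to 0.9945 within a strain and at 0.935 to 0.958 across strains. The probe set for histone H4, named for HHF1 and possibly shared between transcripts, had signals of 1191.7, 1168.9 and 1229.9 in wild type and 1104.3, 1130.9 and 1282.4 in H4R45H (log2 difference -0.03, SE 0.058, adjusted p = 0.64; under cyclic loess scaling 0.14, adjusted p = 0.047). The substitution changes 1 codon, so that level does not check the labels. Dim genes were higher in H4R45H as a body, and each glycogen gene is therefore also set against the genes of its own brightness, in 10 classes of equal size by mean log2 signal over the 6 arrays.

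The synthesis enzymes rose in all 5 cases, by 1.66-fold to 2.69-fold, beside 37.1% of all genes called higher. GLG1 and GLG2 encode the glycogenins that prime new chains. GLG1 had signals of 23.3, 26.8 and 28.6 in wild type and 43.8, 50.1 and 52.6 in H4R45H, a 1.86-fold rise (log2 difference 0.90, SE 0.113, adjusted p = 5.6e-05). GLG2 had 49.6, 52.5 and 50 in wild type and 93.0, 85.3 and 96.9 in H4R45H, a 1.81-fold rise (log2 difference 0.85, SE 0.079, adjusted p = 6.7e-06). For both genes the 3 H4R45H signals lay above the 3 wild-type signals, as they did for 39.8% of all genes. The replicates of GLG2 lay close together.

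GSY1 and GSY2 encode the glycogen synthases, of which Gsy2 is known as the major form. GSY1 (YFR015C) had signals of 42.2, 39.7 and 37.7 in wild type and 70.8, 92.2 and 134.8 in H4R45H, a 2.41-fold rise with a 95% interval of 1.81 to 3.20 (log2 difference 1.27, SE 0.185, adjusted p = 1.6e-04). GSY2 (YLR258W) had 186.5, 193.8 and 167.5 in wild type and 244.9, 319.4 and 354.3 in H4R45H, a 1.66-fold rise with an interval of 1.38 to 2.0 (log2 difference 0.73, SE 0.119, adjusted p = 3.4e-04). The SD of log2 signal was 0.081 in wild type and 0.467 in H4R45H for GSY1, and 0.109 and 0.275 for GSY2. For both synthases H4R45H replicate 1 was the lowest of its strain and replicate 3 the highest. GLC3 (YEL011W), the branching enzyme, showed the same placing of arrays, with 120.0, 153.9 and 140.6 in wild type and 284.8, 375.2 and 470.7 in H4R45H. It rose 2.69-fold (interval 2.11 to 3.41, log2 difference 1.43, SE 0.156, adjusted p = 2.1e-05), the largest rise among the synthesis enzymes.

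The breakdown enzymes had the largest fitted rises of the 10 genes, GPH1 by a margin of only 0.01 on the log2 scale over GIP2. GPH1 (YPR160W) encodes glycogen phosphorylase, which releases glucose 1-phosphate from chain ends. Its signals were 132.8, 130.3 and 131.4 in wild type and 337.5, 419.4 and 456.4 in H4R45H, a 3.05-fold rise (interval 2.63 to 3.55, log2 difference 1.61, SE 0.098, adjusted p = 3.7e-07). GDB1 (YPR184W) encodes the debranching enzyme, which removes the branch points that stop phosphorylase. Its signals were 129.0, 149.0 and 123.2 in wild type and 388.6, 483.0 and 591.4 in H4R45H, a 3.61-fold rise (interval 2.94 to 4.42, log2 difference 1.85, SE 0.132, adjusted p = 1.1e-06). The lowest H4R45H signal of each gene was more than 2-fold its highest wild-type signal.

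PIG1, PIG2 and GIP2 encode subunits that are known, or proposed from their sequence, to bring Glc7 to glycogen synthase. PIG1 had signals of 38.2, 31.6 and 30.9 in wild type and 60.1, 62.3 and 73.2 in H4R45H, a 1.94-fold rise (log2 difference 0.96, SE 0.113, adjusted p = 3.6e-05). PIG2 had 40.8, 51.5 and 55.9 in wild type and 73.4, 82.3 and 90.8 in H4R45H, a 1.67-fold rise (log2 difference 0.74, SE 0.124, adjusted p = 4.0e-04). GIP2 rose 3.02-fold, from 11.8, 11.8 and 13.2 to 37.4, 36.2 and 37.5 (log2 difference 1.60, SE 0.111, adjusted p = 9.1e-07). GIP2 had the dimmest wild-type signal of the 10 and the tightest H4R45H arrays, and its fold depends on the floor of the scale: with 50 added to every signal it was 1.40-fold.

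Set against genes of like brightness, the order of the 10 genes changed, with GSY2 moving up from the last place. GDB1, GPH1, GLC3 and GSY2 lay in a class whose median log2 difference was -0.07 and in which 29.9% of 545 genes were called higher. GDB1 stood 1.92 above that median, GPH1 1.68, GLC3 1.49 and GSY2 0.80. Only 0.183% of that class had a larger difference than GDB1, 0.734% a larger one than GPH1, 2.02% a larger one than GLC3 and 8.26% a larger one than GSY2. The 6 other genes lay in the 3 dimmest classes, where 64.0%, 62.2% and 46.1% of genes were called higher. There GIP2 stood 0.89 above its class median, GSY1 0.87, GLG2 0.69, PIG1 0.56 and PIG2 0.35. Larger differences were found in 16.0% of the class for GIP2, 12.8% for GSY1, 9.36% for GLG2, 19.4% for PIG1 and 28.3% for PIG2. GLG1 stood 0.19 above its class median of 0.71, and 41.1% of that class had a larger difference, so the rise of GLG1 was near the middle of what genes as dim as it showed. The mean over 6 arrays holds the rise itself. With classes set on the wild-type signal alone, an alternative chosen after seeing the data, GLG1 stood at -0.041 against its class median. The others then stood above theirs by 1.77 (GDB1), 1.52 (GPH1), 1.34 (GLC3), 0.86 (GSY1), 0.74 (GSY2), 0.66 (GIP2), 0.55 (PIG1), 0.45 (GLG2) and 0.33 (PIG2).

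**Figure D2:**
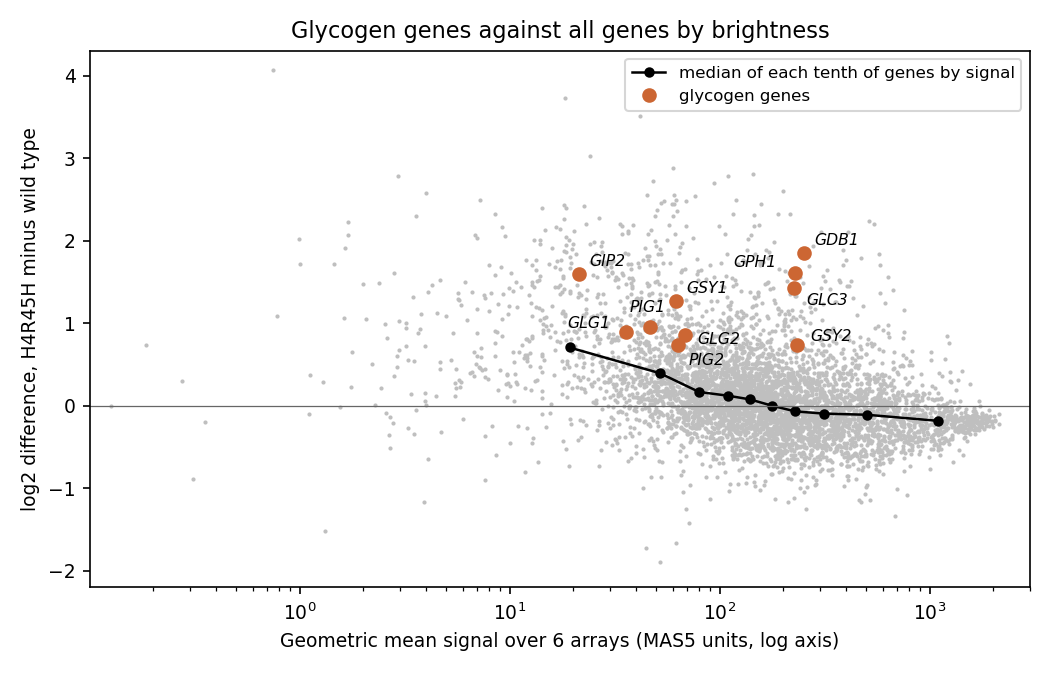
Log2 difference between the strains against the geometric mean signal over 6 arrays (log axis) for 5449 genes in grey, with the median of each of 10 brightness classes in black and the 10 glycogen genes in orange. GDB1, GPH1, GLC3 and GSY2 stand 0.80 to 1.92 above the black line, and GLG1 lies 0.19 above it.

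Rescaling the arrays moved the dim genes most. After quantile normalization, which forces all arrays to 1 distribution, all 10 genes were still called higher, against 26.9% of all genes, by 1.21-fold to 3.51-fold. GDB1 was then 3.51-fold, GPH1 2.93-fold and GLC3 2.57-fold higher, while GLG1 was 1.21-fold (adjusted p = 0.037) and GIP2 1.72-fold higher. Leaving out the dimmest 25% of probe sets removes 6 of the 10 genes, all but GSY2, GLC3, GPH1 and GDB1.

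Paralogs were compared through their ratio within each array, 2 pairs in all. The log2 ratio of GSY1 to GSY2 was -2.14, -2.29 and -2.15 on the wild-type arrays and -1.79, -1.79 and -1.39 on the H4R45H arrays. On the deposited scale its mean was 0.54 higher in H4R45H (SE 0.140), with no overlap between the strains. The exact permutation test gave p = 0.10, two-sided, the smallest that 3 against 3 arrays allow, and 0.20 adjusted over the 2 pairs. The difference was 0.18 after quantile normalization (exact p = 0.50), 0.18 after cyclic loess normalization (exact p = 0.30) and 0.11 with 50 added to each signal (exact p = 0.30). Above their own brightness classes GSY1 and GSY2 stood 0.87 and 0.80.

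The log2 ratio of GLG1 to GLG2 was -1.09, -0.97 and -0.81 in wild type and -1.09, -0.77 and -0.88 in H4R45H. These overlapped, with a difference of 0.04 (SE 0.124, exact permutation p = 0.70, two-sided). That difference was -0.24 after quantile normalization and -0.21 after cyclic loess normalization (exact p = 0.20 each), so its sign is not settled.

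**Figure D3:**
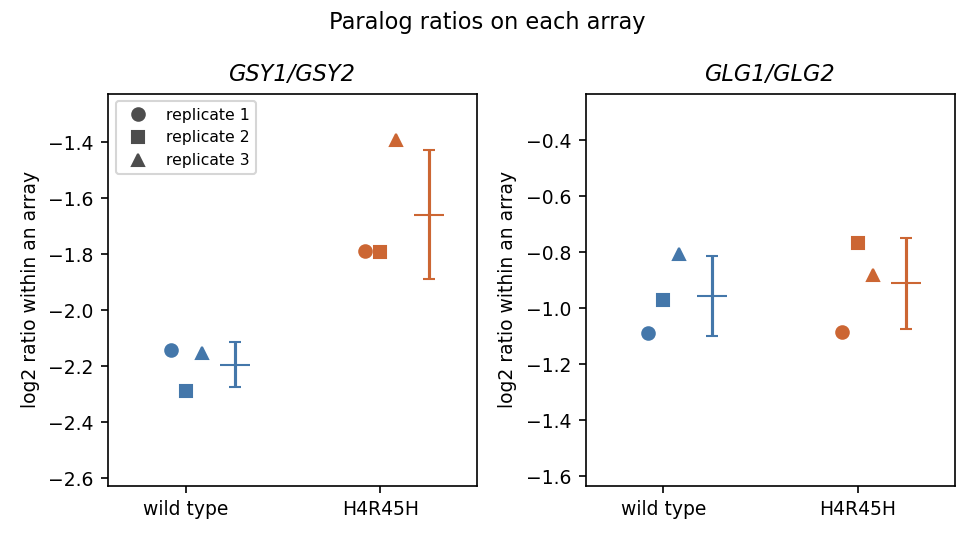
Log2 ratio of paralog signals within each array for GSY1/GSY2 and GLG1/GLG2, with marker shape giving the replicate and the bar the mean ± SD of 3 arrays. The GSY1/GSY2 ratios of the strains are separate (0.54 apart on average) and the GLG1/GLG2 ratios overlap.

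In order of log2 difference the genes ran GDB1, GPH1, GIP2, GLC3, GSY1, PIG1, GLG1, GLG2, PIG2 and GSY2. The 9 pairs of neighbours in that order were compared in the same way. GDB1 and GPH1 had ratios that did not overlap between the strains (0.24 apart, SE 0.105, exact permutation p = 0.10, adjusted p = 0.90 over 9 pairs). For the other 8 pairs the ratios overlapped. The order was set by these same differences and none of the 9 pairs passed after adjustment, so it is not resolved by 3 arrays per strain.

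Signals of these genes varied between replicates of H4R45H. The median SD of log2 signal was 0.19 in H4R45H and 0.13 in wild type for the 10 genes, against 0.084 and 0.076 for all genes. The SD was larger in H4R45H than in wild type for 6 of the 10 genes and for 2938 of the 5449. H4R45H replicate 3 gave the highest of the 3 signals for all 10 genes, and replicate 1 the lowest for 8, the exceptions being GLG2 and GIP2. Among all 5449 genes replicate 3 was highest for 2007 and replicate 1 lowest for 1908, and 22.8% had replicate 1 lowest together with replicate 3 highest. GSY1 was 1.90-fold higher on replicate 3 than on replicate 1, GLC3 1.65-fold, GDB1 1.52-fold, GSY2 1.45-fold and GPH1 1.35-fold, and at most 1.78% of all genes had a larger gap than any of these 5. The median log2 gap was 0.37 for the 10 genes and -0.01 for all genes. Without replicate 1 the median strain difference of the 10 genes was 1.25, and without replicate 3 it was 0.95, with all 10 called higher each time. Neither the source of this spread nor its part in the strain difference was tested.

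**Figure D4:**
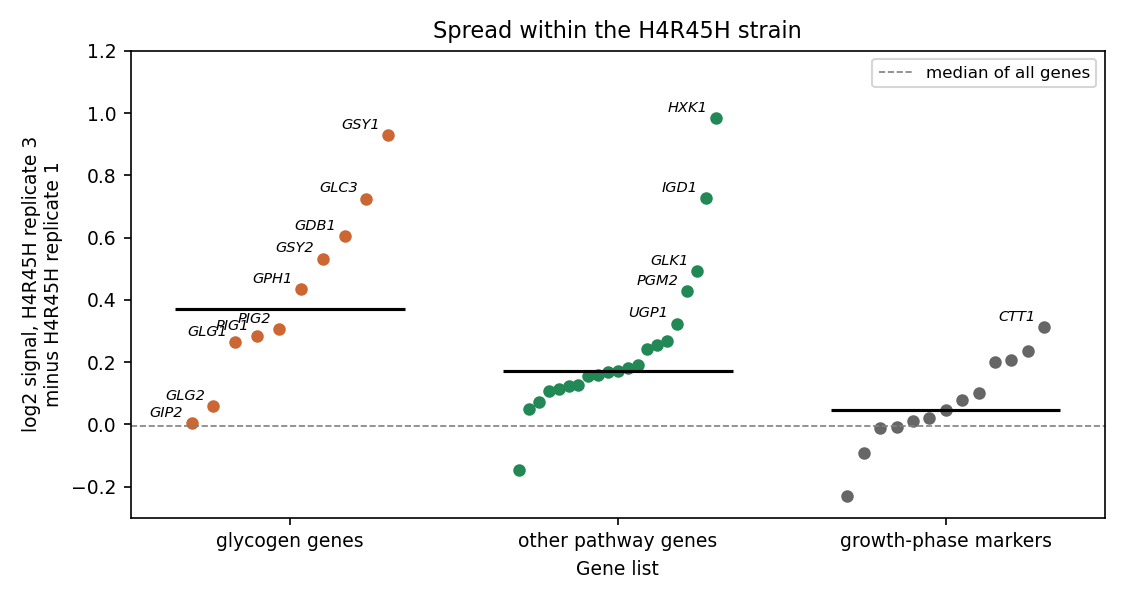
Difference in log2 signal between H4R45H replicates 3 and 1 for each gene of 3 lists, sorted within a list, with the list's median as a black line and the median of all genes dashed. GSY1, GLC3, GDB1, GSY2 and GPH1 lie between 0.44 and 0.93, HXK1, IGD1, GLK1 and PGM2 of the wider pathway between 0.43 and 0.98, and the growth-phase markers centre on 0.05.

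The wider pathway was more mixed. Of 21 further genes of glycogen metabolism and its control, 12 rose, 4 fell and 5 did not pass the test, with a median log2 difference of 0.37, beside 37.1% of all genes higher and 29.1% lower. Genes that feed the pathway split by isozyme. HXK1, a hexokinase known to be repressed by glucose, rose 2.89-fold (240.6, 219.2 and 196.5 in wild type, 439.9, 651.0 and 869.3 in H4R45H; adjusted p = 5.5e-05), and the glucokinase gene GLK1 rose 1.97-fold (adjusted p = 2.3e-05). HXK2, the main hexokinase on glucose, fell by 0.23 on the log2 scale (adjusted p = 0.0016), a call that was lost after quantile normalization (adjusted p = 0.096) and cyclic loess normalization (adjusted p = 0.21). In its brightness class, the brightest, the median log2 difference was -0.18 and 65.7% of genes were called lower. HXK2 stood at -0.04 against that median, so its fall was near the middle of what genes as bright showed.

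The phosphoglucomutases, which interconvert glucose 6-phosphate and glucose 1-phosphate, moved in opposite directions. PGM2, the major form, rose 2.33-fold, from 92.5, 107.0 and 93.1 to 195.0, 227.5 and 262.5 (adjusted p = 4.2e-06). PGM1, the minor form, fell from 382.9, 371.9 and 343.9 to 226.4, 220.4 and 243.7 (log2 difference -0.67, SE 0.066, adjusted p = 1.0e-05). UGP1, which makes the UDP-glucose that synthase uses, did not pass (log2 difference 0.09, 95% interval -0.08 to 0.26, adjusted p = 0.31), and it was called higher without H4R45H replicate 1 (0.18, adjusted p = 0.017), and under both quantile (0.19, adjusted p = 0.045) and cyclic loess scaling (0.23, adjusted p = 0.020).

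**Figure D5:**
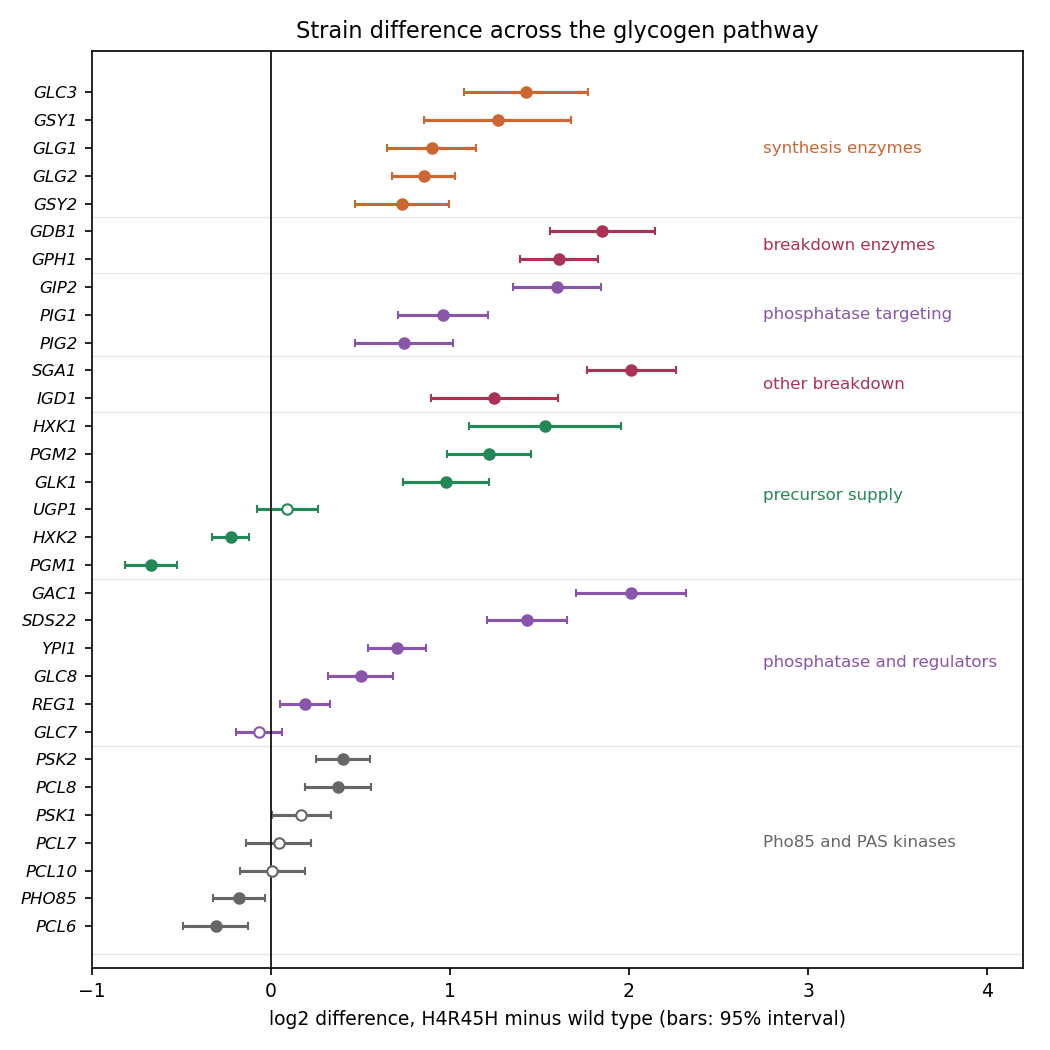
Log2 difference of H4R45H minus wild type with its 95% interval for the 10 glycogen genes and 21 further genes of the pathway, grouped by role, with open circles for genes that did not pass the test. Precursor supply runs from PGM1 at -0.67 to HXK1 at 1.53, and the kinase group stays between -0.31 and 0.40.

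Among the phosphatase and its regulators 5 of 6 genes rose, beside 37.1% of all genes, and the call of 1 of them, REG1, depended on single arrays. GLC7, the catalytic subunit itself, did not pass as deposited (log2 difference -0.07, adjusted p = 0.34) and was called lower after median centring (-0.17, adjusted p = 0.034). GAC1, the best known glycogen targeting subunit, had the largest difference of the group, 4.03-fold, from dim signals of 6.8, 7.3 and 6.8 to 27.5, 25.6 and 31.4 (adjusted p = 9.1e-07), which was 0.46 on the log2 scale with 50 added. SDS22, a regulatory subunit that acts on Glc7 in the nucleus, rose 2.69-fold, from 127.3, 157.4 and 134.4 to 362.9, 338.0 and 429.2 (adjusted p = 1.0e-06). The Glc7 regulators YPI1 and GLC8 rose 1.63-fold and 1.41-fold. REG1, which directs Glc7 to glucose repression, rose 1.14-fold (adjusted p = 0.020), and that call was lost without wild type replicate 1, wild type replicate 3 or H4R45H replicate 2 (adjusted p = 0.055, 0.057 and 0.081) and after quantile normalization (adjusted p = 0.060) or median centring (adjusted p = 0.26).

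Of 7 genes for the kinases that act on glycogen synthase and their cyclins, 2 rose, 2 fell and 3 did not pass, with log2 differences of -0.31 to 0.40. These shares are near those of all genes (37.1% higher and 29.1% lower). PSK2, a PAS kinase known to phosphorylate Ugp1 and synthase, rose 1.32-fold (adjusted p = 4.3e-04), and its paralog PSK1 did not pass (1.12-fold, adjusted p = 0.064) but was called without H4R45H replicate 1 (adjusted p = 0.019). PCL8, a cyclin that directs Pho85 to synthase, rose 1.30-fold (adjusted p = 0.0024), a call lost after quantile normalization (adjusted p = 0.26) and cyclic loess normalization (adjusted p = 0.092). Its partner in that role, PCL10, had a difference of 0.01 (adjusted p = 0.95) that was -0.36 after quantile normalization (adjusted p = 0.0032). PCL6, a cyclin that acts through Glc8, fell by 0.31 (adjusted p = 0.0064), which was -0.66 after quantile normalization, -0.57 after cyclic loess normalization and -0.18 with 50 added. Its paralog PCL7 did not pass (log2 difference 0.04, adjusted p = 0.65). PHO85 itself fell by 0.18 (adjusted p = 0.032), and the call was lost when replicate 1 or 2 of either strain was left out (adjusted p = 0.087 to 0.097).

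Of the further breakdown genes both rose, beside 37.1% of all genes and 62.2% of the genes in their brightness class called higher. SGA1, a glucoamylase known from sporulating cells, rose 4.04-fold, from 24.2, 32.6 and 27.6 to 110.8, 106.9 and 121.0 (adjusted p = 2.1e-07). IGD1, an inhibitor of the debranching enzyme, rose 2.38-fold, from 36.1, 44.3 and 38.1 to 71.6, 96.3 and 118.5 (adjusted p = 6.3e-05). Its H4R45H arrays were placed as those of GSY1 were, with replicate 3 at 1.66-fold replicate 1. With 50 added, the log2 differences of SGA1 and IGD1 fell from 2.01 and 1.25 to 1.06 and 0.69.

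Genes known to be induced as glucose runs out were also higher in H4R45H, but most did not share the placing of H4R45H replicates seen for the glycogen genes. Of 13 such markers all 13 rose, with a median log2 difference of 1.46 and a range of 0.76 to 2.44, beside 37.1% of all genes called higher. The list was chosen with earlier results of these data known. On the deposited scale the largest differences were those of the lactate transporter JEN1 (5.44-fold), the gluconeogenic enzyme FBP1 (5.35-fold) and the hydrophilin GRE1 (3.93-fold). Their wild-type signals were dim, and with 50 added the log2 differences were 1.34, 0.77 and 1.12. Of the 13 markers 4 (30.8%) had H4R45H replicate 1 lowest together with replicate 3 highest, beside 80.0% of the glycogen genes and 22.8% of all genes. The median log2 gap between replicates 3 and 1 was 0.05 for the markers and 0.37 for the glycogen genes. The part of growth phase in the rise of the glycogen genes was not tested.

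The genes whose profiles over the 6 arrays were most like those of GSY2 and GPH1 were found by the root mean square distance between log2 signals, each profile centred on its wild-type mean. Nearest to GSY2 were GPD1, a glycerol 3-phosphate dehydrogenase (distance 0.034), TPS1, the trehalose 6-phosphate synthase (0.046), and GRE3, an aldose reductase (0.062). Nearest to GPH1 were IRC18 (0.048), DCS2 (0.067) and TFS1, an inhibitor of carboxypeptidase Y (0.076). Among the other glycogen genes the closest to GPH1 was GIP2, in place 31 (0.145), and the closest to GSY2 was PIG2, in place 250 (0.191).

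Genes beside the glycogen genes on the chromosomes were called higher at about the share of all genes. The 10 genes lie apart, with none next to another, and have 20 protein-coding neighbours in the RefSeq gene order, of which 17 were measured. Of these, 6 were higher, 4 lower and 7 did not pass, with a median of -0.10, beside the 37.1% of all genes called higher. The largest rise was that of CMK1, next to GSY1 (log2 difference 0.62), and the largest called fall that of HIS1, next to GIP2 (-0.62).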

How the data were processed

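The intensities used here were deposited by the authors as 1 MAS5 signal per probe set and array on a linear scale, and the submitters' processing notes name MAS5 without a version. For the scaling target and the detection calls, the value was not given in the sources used here. Gene names came from the platform annotation, updated by Entrez identifier (5498 of 5716 probe sets named, 5498 matched to the RefSeq table of assembly R64). A gene with several probe sets was read from the brightest. The log2 of the signal was used unscaled, with 7 values at 0 set to 0.1. The strain difference was fitted over all 5716 probe sets with limma 3.58.1 under R 4.3.3 (lmFit, eBayes with trend, two-sided, Benjamini-Hochberg), and genes with an adjusted p under 0.05 were called. Errors are SE of the log2 difference, and intervals are 95%. The fit was tested on simulated data with independent noise, few changed probe sets and no trend of the difference with brightness. That test does not cover a shift as broad as the one in these data. Paralog ratios used exact permutation tests over the 3 arrays of each strain.

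All 10 genes and every gene of the pathway lists were eligible to be named, with up to 3 growth-phase markers, the 3 nearest genes of GSY2 and of GPH1, and the histone H4 probe set. CMK1 and HIS1 were chosen after their values were seen, as was the comparison of H4R45H replicates. The members and lists were chosen with earlier results of these data known. Alternatives were quantile, cyclic loess and median scaling, the replicate block, 50 added to each signal, a fit with no variance trend, a filter on the dimmest 25% of probe sets, omission of each array in turn, and averaging the probe sets of a gene.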

Additional observations from a re-analysis of the deposited data

How the results depend on the processing

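All 10 glycogen genes were called higher and 0 lower (all 10 differences were above 0, so the count at an unadjusted p under 0.05 was also 0) under each alternative that kept them, and 4 of 4 were called without the dimmest 25% of probe sets. The share of all genes called higher was 37.1% as deposited and 26.9% after quantile normalization. It was not counted for the other alternatives, so the counts given here for those have no such share beside them. Their median log2 difference was 0.74 after quantile normalization, 0.86 after cyclic loess normalization, 0.55 with a pseudocount of 50 and 1.52 without the dimmest 25%, and it ranged from 0.95 to 1.25 when 1 array was left out. The GLG1 against GLG2 difference turned to -0.24 after quantile normalization, -0.21 after cyclic loess normalization and -0.12 with the pseudocount, and ranged from -0.029 to 0.13 without 1 array. GSY1 against GSY2 ranged from 0.40 to 0.60 without 1 array. Of the further pathway genes 11 to 14 were higher and 3 to 4 lower without 1 array.

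Small differences changed sign. PCL7 was -0.14 after quantile normalization, -0.075 after cyclic loess normalization and -0.059 after median centring, and ranged from -0.027 to 0.10 without 1 array. PCL10 was -0.36, -0.28 and -0.10 under the same settings in that order, and ranged from -0.039 to 0.047 without 1 array. HHF1 was 0.12 after quantile normalization and 0.14 after cyclic loess normalization, and ranged from -0.10 to 0.0093 without 1 array. UGP1 was -0.012 after median centring and GLC7 0.045 after cyclic loess normalization. With brightness classes set on wild-type signal, added after seeing the data, GLG1 was at -0.041 against its class median. The cause was not tested.

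Same-numbered arrays did not deviate together (correlations of -0.03 to 0.03), and arrays of different number gave -0.12 to 0.12. With 3 arrays per strain these values cannot settle whether the numbers pair the arrays. With the replicate block 10 glycogen genes were higher, with a median of 1.11, and PHO85 lost its call (adjusted p = 0.061). Averaging probe sets could change nothing for the 45 genes of the lists and the histone H4 probe set, which have 1 each, and was not run for the nearest and neighbouring genes. The search for a stress-response motif in promoters was not run. The number of arrays limits the precision, and for dim genes the fold depends on the floor of the signal.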
